A study of Mus musculus with 4 samples.

Results

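The genes described here are 10 genes of the major histocompatibility complex (MHC) class I pathway, taken by their symbols from the 32285 genes measured. They are the classical heavy chains H2-D1 and H2-K1, the light chain B2m, the non-classical heavy chains H2-Q4, H2-Q7 and H2-T23, the peptide transporter subunits Tap1 and Tap2, tapasin (Tapbp), and Nlrc5, a transactivator of class I genes. All 10 were found in every library, and all 10 passed the filter on low counts in microglia. The study used CD11b microbead-selected brain cells from mice aged 8 to 12 weeks, read as single cells with 10x 3′ v3 chemistry, with 1 mouse in each of 4 libraries. The mice were wild type or labelled as IL-6 knockout, and each genotype had 1 sham mouse and 1 mouse at day 6 after cerebrovascular injury (CVI). CVI was made by pulsed ultrasound with microspheres given intravenously beneath a thinned skull, and tissue came from a 4 mm punch. One label places the controls at 6 days after sham surgery and another describes them as uninjured. The labels give a mild and a severe CVI without saying which was used, and do not give the strain or the targeted exon.

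Class I molecules show peptides from a cell's own proteins to CD8 T cells and to natural killer cells. The proteasome cuts proteins, the TAP1 and TAP2 dimer carries the peptides into the endoplasmic reticulum, tapasin holds the empty heavy chain and β2-microglobulin at the transporter, and the loaded complex moves to the surface. Interferons raise the pathway through IRF factors and NLRC5. Microglia, the resident macrophages of the brain, are known for low class I expression at rest. Macrophages at the brain borders and endothelial cells are known to carry more.

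Depth and labels set how the values can be read. The libraries held 2682 to 4731 barcodes, of which 957, 2883, 1362 and 2549 cells were analysed in the wild-type sham, wild-type injured, knockout-labelled sham and knockout-labelled injured libraries; all values below keep this order. Median depth was 7708 to 10016 UMIs per cell, a UMI being 1 counted RNA molecule. Barcode sequences shared between libraries numbered 26, of which 20 were shared by the 2 sham libraries. Il6, the targeted gene, was counted in every library and was higher in the knockout-labelled ones. It was at 10.5, 4.61, 25.3 and 22.1 CPM (UMIs scaled to the same total in every sum) over all analysed cells. A 3′ count can come from outside a deleted part and checks nothing there, so the mice are called knockout-labelled throughout. Cells were gated on marker genes that include none of the 10 members, at levels set after the marker distributions were seen. Microglia numbered 728, 1709, 1157 and 2075 cells, and macrophages high in Lyz2 and Ms4a7 numbered 5, 447, 5 and 52. Border macrophages numbered 69, 61, 56 and 57 cells, and endothelial cells 22, 68, 39 and 117. All 6 markers of the microglial gate were detected in the microglia of every library, and their summed level was 6591, 2896, 7256 and 3870 CPM. Cells of the wild-type injured library lay near the gate most often: 247 of its microglia were within 1.5 times above the marker cut, against 9, 15 and 114 in the other libraries. A further 74, 496, 47 and 196 cells passed no gate and are in none of the sums of these classes. Of them, 42, 265, 25 and 108 lay below the microglial cut but not below the halved cut.

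The members lie on 3 chromosomes of the mm10 genome, in the GENCODE vM21 annotation. Tapbp (chr17:33915899-33929292), H2-K1 (chr17:33996017-34000347), Tap1 (chr17:34187553-34197225) and Tap2 (chr17:34203527-34216321) lie at one end of the MHC, with 6302 bp between Tap1 and Tap2. H2-D1 (chr17:35262730-35267499), H2-Q4 (chr17:35379617-35385290), H2-Q7 (chr17:35439155-35443773) and H2-T23 (chr17:36029773-36032855) lie further along chromosome 17. B2m is on chromosome 2 (chr2:122147686-122153083) and Nlrc5 on chromosome 8 (chr8:94434356-94527272). Counts are 3′ tags summed over each gene and do not tell isoforms apart.

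The promoters shown are those of the 4 members whose window held at most 1 base of annotated untranslated region. These genes gave both strong and weak responses to injury, and H2-Q7 and H2-Q4 are close relatives. Each run is the 250 bases before the RefSeq start in GRCm38.p6 (for H2-K1 the first listed of 2 starts), 5′ to 3′ on the gene's strand. Capitals mark matches on either strand to the NF-kB sites GGGANTTCC and GGGATTCCC, the interferon-response core GAAANNGAA, the CCAAT box and the CRE core TGACG. The windows are chr17:34000348-34000597 (minus strand) for H2-K1, chr2:122147437-122147686 (plus) for B2m, chr17:35438905-35439154 (plus) for H2-Q7 and chr17:35379367-35379616 (plus) for H2-Q4.
H2-K1: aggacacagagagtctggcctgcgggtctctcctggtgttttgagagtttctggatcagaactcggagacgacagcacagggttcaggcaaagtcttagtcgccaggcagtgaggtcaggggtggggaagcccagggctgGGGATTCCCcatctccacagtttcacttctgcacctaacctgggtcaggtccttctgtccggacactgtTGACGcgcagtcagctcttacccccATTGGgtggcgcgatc
B2m: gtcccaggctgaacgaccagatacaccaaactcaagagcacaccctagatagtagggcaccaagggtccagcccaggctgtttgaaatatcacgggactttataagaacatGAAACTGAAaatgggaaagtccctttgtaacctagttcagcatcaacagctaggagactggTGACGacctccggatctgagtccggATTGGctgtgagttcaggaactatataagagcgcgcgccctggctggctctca
H2-Q7: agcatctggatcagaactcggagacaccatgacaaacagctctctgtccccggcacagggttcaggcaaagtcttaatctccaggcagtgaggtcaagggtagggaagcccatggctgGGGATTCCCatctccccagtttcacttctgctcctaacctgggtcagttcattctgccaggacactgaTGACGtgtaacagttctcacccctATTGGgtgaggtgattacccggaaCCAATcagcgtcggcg
H2-Q4: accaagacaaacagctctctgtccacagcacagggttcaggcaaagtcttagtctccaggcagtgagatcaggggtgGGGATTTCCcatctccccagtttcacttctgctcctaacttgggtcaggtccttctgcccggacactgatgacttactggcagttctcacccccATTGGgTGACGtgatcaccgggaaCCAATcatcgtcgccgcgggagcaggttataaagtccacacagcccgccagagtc

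Promoters of 8 of the 10 members were matched, without Tap2 and Nlrc5. Some of the 8 windows lay mostly in untranslated regions annotated for any gene. Such bases numbered 250 for H2-D1, 246 for Tap1, 244 for Tapbp and 154 for H2-T23. The CCAAT box was found in 8 of these 8 windows, against 33.8% of 32851 mouse promoter windows of the same length. The CRE core was found in 6, against 17.8%, and the missing genes were H2-T23 and Tapbp. GGGATTCCC was found in H2-D1, H2-K1 and H2-Q7, against 0.301% of all windows, and GGGANTTCC in H2-Q4, against 1.43%. The windows of H2-D1, H2-K1, H2-Q4 and H2-Q7 share long stretches of sequence. Their matches are therefore not independent of each other, and the shares of all windows do not measure an enrichment. In H2-Q7 the match was GGGATTCCC from base -132 to -124, and in H2-Q4 it was GGGATTTCC from base -173 to -165, counted back from the start. The interferon-response core was found in B2m and H2-T23, against 7.13% of all windows. No searched motif overlapped another in these 4 runs. A match is a run of letters and is not shown here to be a site in use. Only exact matches were sought, so a window without one is not shown to lack a related site.

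In microglia the transcripts of the classical heavy chains and of the light chain rose after injury. H2-D1, a classical heavy chain, was at 684, 1651, 628 and 1758 CPM, the gene's share of all microglial UMIs. H2-K1, the other classical heavy chain, was at 687, 1467, 621 and 1452. B2m, the light chain shared by every class I complex, was at 1871, 3780, 2003 and 4114. Both injured mice were above both sham mice for all 3 genes, and mice of the same state lay close together. The share of all genes with no overlap between sham and injured mice was not counted, here or for the genes below. The injured-to-sham ratio was 2.42 (95% exact interval 2.35 to 2.49) and 2.80 (2.73 to 2.87) for H2-D1 in wild-type and knockout-labelled mice. It was 2.14 and 2.34 for H2-K1, and 2.02 and 2.05 for B2m. These intervals cover counting error in 2 libraries and not the spread between mice.

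The edgeR quasi-likelihood test of injury, fitted with genotype over the 4 libraries, uses TMM scaling, which sets the bulk of genes near 0. It called 9 of the 10 members higher at an adjusted p under 0.05, where 23.4% of 12905 genes were called higher and 20.4% lower. The median log2 change was 1.5 over the members and -0.01 over all genes tested. On that scale H2-D1 rose by 1.79 ± 0.13 (SE, edgeR adjusted p = 1.0e-11), H2-K1 by 1.57 ± 0.13 (1.5e-10) and B2m by 1.43 ± 0.12 (1.7e-10). The spread in this fit has 1 residual degree of freedom and measures departure from additive effects of genotype and injury among 4 mice. In edgeR each gene's spread is drawn toward the spread pooled over all genes tested. The small p-values rest on that pooling and do not measure the spread between mice of a single gene. With total UMIs as the only scaling, the median of all genes moved to -0.42 and 7 of 10 members were still called higher. These were H2-D1, H2-K1, B2m, H2-Q7, H2-T23, Tap1 and Nlrc5, and the same 7 were called in every other fit tried. By size alone, with 10 CPM added to both values before the ratio, 4 of the 9 members above 20 CPM (H2-D1, H2-K1, B2m and H2-Q7) were at least 2-fold higher in the wild-type pair and the same 4 in the knockout-labelled pair. Over 6385 genes the same limit was passed by 3.21% and 2.46%. Without the added 10 CPM, Tap1 also passed in both pairs.

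**Figure D1:**
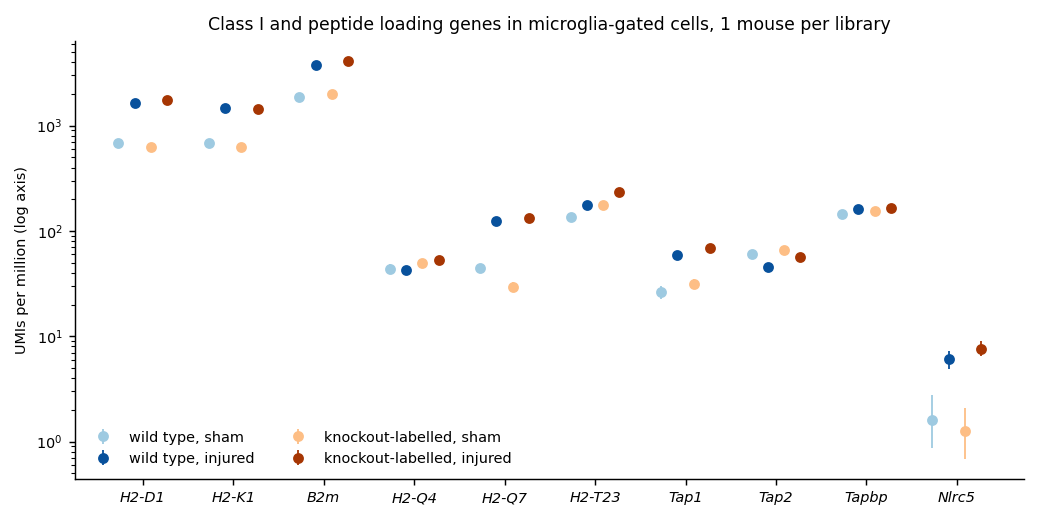
Level of each gene in microglia-gated cells, in CPM on a log axis, for the 4 libraries (1 mouse each). Bars are exact 95% Poisson intervals for counting error. Both injured libraries sit above both sham libraries for H2-D1, H2-K1, B2m, H2-Q7, Tap1 and Nlrc5, an order whose share over all genes was not counted. H2-T23 of the wild-type injured mouse is level with the knockout-labelled sham mouse. The calls of H2-Q4 and Tapbp and the direction of Tap2 depend on the scaling.

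The non-classical heavy chains did not move as one. H2-Q7, which encodes a Qa-2 family chain, was at 44.1, 123, 29.2 and 133 CPM and rose by 2.24 ± 0.17 log2 (SE, edgeR adjusted p = 1.4e-11). Its ratio was 2.79 (2.49 to 3.13) in wild-type mice and 4.57 (4.07 to 5.14) in knockout-labelled mice; the sham levels differed more than the injured levels did. H2-T23 encodes Qa-1, the ligand of the CD94 and NKG2 receptors. It was at 137, 177, 176 and 237 CPM, so the injured wild-type mouse lay level with the sham knockout-labelled mouse. It rose by 0.81 ± 0.14 log2 (edgeR adjusted p = 5.9e-05), with ratios of 1.29 and 1.34.

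H2-Q4, which encodes the secreted chain Qb-1, was at 44.0, 42.4, 49.4 and 53.1 CPM, and its sham and injured values overlapped. The intervals of its ratios, 0.96 (0.85 to 1.10) and 1.08 (0.97 to 1.19), included 1, whereas the TMM-scaled fit gave 0.43 ± 0.14 log2 (edgeR adjusted p = 0.015). That call was lost with total UMIs only (0.03, adjusted p = 0.87), with DESeq2 (adjusted p = 0.10), with the halved microglial threshold (0.098), without the wild-type sham mouse (0.12) and without the knockout-labelled injured mouse (0.18). H2-Q4 and H2-Q7 sit among near-identical neighbours. No label says how reads shared by such copies were counted, so the values of H2-Q4, H2-Q7, H2-D1 and H2-K1 are uncertain to that extent. Annotated antisense genes overlap H2-Q4 and Tapbp, and the strand setting of the counting is not stated.

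The peptide transporter subunits parted. Tap1 was at 26.2, 59.7, 31.4 and 69.4 CPM and rose by 1.57 ± 0.15 log2 (SE, edgeR adjusted p = 1.9e-09), with ratios of 2.28 (1.96 to 2.65) and 2.21 (1.96 to 2.49). Tap2 was at 60.1, 45.4, 65.3 and 56.6, so both injured mice were below both sham mice on this scale, with ratios of 0.76 (0.67 to 0.85) and 0.87 (0.79 to 0.95). In the TMM-scaled fit Tap2 was at 0.10 ± 0.14 log2 (adjusted p = 0.59), and with total UMIs only at -0.30 (adjusted p = 0.086); its direction depends on the scaling. The ratio of Tap2 to Tap1 UMIs needs no scaling between libraries. It was 2.29 (95% exact interval 1.95 to 2.71) and 2.08 (1.83 to 2.37) in the sham mice and 0.76 (0.69 to 0.84) and 0.81 (0.75 to 0.88) in the injured mice. Sham and injured ranges did not overlap. A 3′ tag may be captured at unlike rates from different genes, so the change in this ratio can be read and its level cannot.

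Tapasin, the bridge between transporter and heavy chain, was nearly level at 145, 160, 155 and 164 CPM. Tapbp had ratios of 1.10 (1.03 to 1.18) and 1.06 (1.00 to 1.12). Its 0.52 ± 0.15 log2 in the TMM-scaled fit (edgeR adjusted p = 0.0054) stood at 0.11 (adjusted p = 0.49) with total UMIs only. Nlrc5 was the rarest member, with 13, 103, 14 and 155 UMIs, or 1.61, 6.02, 1.25 and 7.62 CPM. Its fitted rise was 2.67 ± 0.30 log2 (edgeR adjusted p = 4.8e-08), with wide ratios of 3.73 (2.09 to 7.24) and 6.08 (3.52 to 11.4). Both injured counts were far above both sham counts.

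The 10 genes together made up 0.370%, 0.751%, 0.376% and 0.804% of all UMIs in microglia. After each cell was thinned to 3000 UMIs, which left out 129, 117, 180 and 191 shallower microglia, the median cell held 2, 4, 1 and 5 UMIs of H2-D1. For H2-K1 the medians were 2, 4, 1 and 4, and for B2m they were 5, 11, 5 and 11. The upper quartile of B2m in the sham mice was 7 and 8 UMIs, and the lower quartile in the injured mice was 7 and 8. H2-Q7 was detected in 8.85%, 26.6%, 7.47% and 27.3% of thinned cells (30.9%, 53.0%, 21.2% and 55.0% before thinning). Tap1 was detected in 9.52%, 15.6%, 8.90% and 17.4% of thinned cells (26.2%, 41.5%, 26.8% and 44.7%), and Tap2 in 20.0%, 13.0%, 20.0% and 15.8% (47.6%, 36.7%, 50.1% and 44.1%).

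Markers of other cells were measured in the same gated microglia. Cells high in lymphocyte, neuronal or other such markers had been set aside before gating, 59, 102, 58 and 52 cells. The levels of those markers in microglia were thus bounded in part by the gate. The 5 markers of Lyz2/Ms4a7 macrophages were all detected in each library, and their summed level moved with injury, at 370, 2038, 316 and 1294 CPM. T and natural killer cell markers were at or near 0, at 0.12 to 0.72 CPM, with Cd3e, Cd3g, Nkg7 and Ncr1 at 0 in every library. The 4 neuronal markers were lower after injury, at 118, 13.0, 105 and 16.4. In microglia with at least 40 microglial marker UMIs per 10000, the injured-to-sham ratio was 2.24 and 2.63 for H2-D1, 1.94 and 2.13 for H2-K1, and 1.90 and 1.91 for B2m. In cells with 20 to 40 it was 2.16 and 2.48, 2.01 and 2.30, and 2.22 and 2.33. In the lowest range, 10 to 20, where the sham mice had 22 and 33 cells, H2-D1 stood at 1.26 and 1.14 and H2-K1 at 0.88 and 1.08, with B2m at 1.67 and 2.97. Sham cells of that range held H2-D1 at 1245 and 1575 CPM, against 671 and 616 in sham cells with 40 or more. Barcodes that failed the cell filter, which include failed cells and do not measure free RNA, held H2-D1 at 528, 1631, 365 and 1250 CPM, and B2m at 1015, 1243, 627 and 1494. The part of free RNA in the microglial rise was not tested.

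Interferon-stimulated transcripts were used to divide the microglia. Of the thinned sham microglia, 90.2% in each mouse had no UMI of a 13-gene interferon list (Ifit1, Isg15, Rsad2, Irf7 and others), against 48.7% and 47.7% in the injured mice. In cells without such a UMI, H2-D1 was at 669, 1469, 617 and 1633 CPM, H2-K1 at 662, 1236, 602 and 1269, and B2m at 1873, 3410, 2005 and 3842. Tap1 was at 25.7, 47.5, 28.8 and 48.5 there. The injured mice were above the sham mice for these genes in cells with no interferon-list UMI. A cell at 0 of 3000 UMIs may still hold such transcripts below this depth. H2-T23 was at 138, 137, 176 and 182 in these cells and Tapbp at 145, 141, 154 and 146, with overlapping counting intervals within each genotype.

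Within the injured mice, the members differed in how they varied with that list. Tap1 went from 47.5 and 48.5 CPM in cells with 0 list UMIs to 147 (119 to 180) and 224 (193 to 258) in those with 10 or more, which were 52 and 81 cells. Nlrc5 went from 3.89 and 3.02 to 20.4 and 48.0, and H2-Q7 from 95.5 and 109 to 273 and 221. H2-T23 went from 137 and 182 to 292 and 376. H2-K1 stood at 2058 and 1980 in the top cells and H2-D1 at 1849 and 2109, a smaller step from their levels at 0. Tap2 was at 43.3 and 53.2 in cells with 0 and at 62.7 and 97.1 in those with 10 or more. These are groups of cells from 1 mouse each, given as a description.

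**Figure D2:**
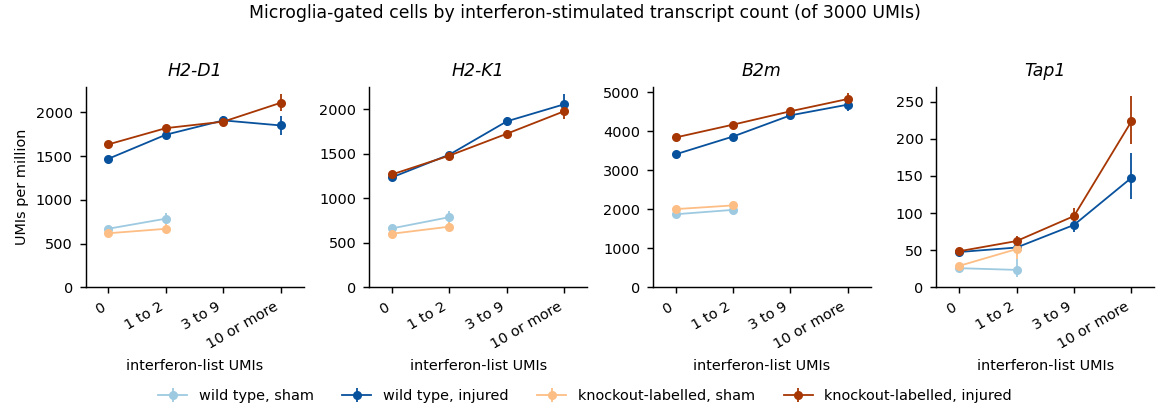
Levels of 4 members in microglia-gated cells grouped by their interferon-list UMIs among 3000 (x axis), in CPM, with exact 95% Poisson intervals. Lines join the groups of 1 library, and groups under 20 cells are not drawn. In cells with 0 list UMIs the injured libraries lie above the sham libraries for all 4 genes, and Tap1 has the largest ratio of cells with 10 or more to cells with 0.

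Neither endothelial cells nor border macrophages showed a called change in any member. These sums rest on few cells, with 22 and 39 endothelial cells in the sham mice, so a lack of calls does not show a lack of change. In endothelial cells H2-D1 was at 1195, 1275, 993 and 1514 CPM, H2-K1 at 801, 1069, 828 and 1146, and B2m at 1175, 1404, 1164 and 1373. The injured-to-sham ratio of H2-D1 was 1.07 (0.90 to 1.26) in wild-type and 1.52 (1.35 to 1.72) in knockout-labelled mice. It was 1.33 (1.10 to 1.64) and 1.38 (1.21 to 1.58) for H2-K1, and 1.19 (1.01 to 1.41) and 1.18 (1.05 to 1.32) for B2m, with counting error only. The edgeR injury test called 0 of 9 members tested, where 0.794% of 6170 genes were called, and 2 had an unadjusted p under 0.05. Those were H2-K1 at 0.43 ± 0.17 log2 (adjusted p = 0.31) and H2-D1 at 0.35 ± 0.16 (adjusted p = 0.50). DESeq2 also called 0 of 9. In border macrophages H2-D1 was at 1590, 1727, 1427 and 1638, H2-K1 at 1184, 1072, 1051 and 1286, and B2m at 2007, 2248, 2035 and 2213. There edgeR called 0 of 9 members, where 0.485% of 5572 genes were called, with 0 at an unadjusted p under 0.05, and DESeq2 called 0. Nlrc5, with 1 to 9 UMIs per library in each of these classes, was not tested. Endothelial H2-Q7 rests on 0, 13, 14 and 33 UMIs.

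The difference in injury effect between classes was tested with the library as a block, a comparison added after the files were seen. The microglial effect exceeded the endothelial one for 6 of 10 members, where 3.39% of 12368 genes were called in that direction. The excess was 1.33 ± 0.22 log2 for H2-D1 (SE, edgeR adjusted p = 4.8e-07), 1.03 ± 0.23 for H2-K1 (4.2e-04), 1.09 ± 0.22 for B2m (1.2e-04) and 1.70 ± 0.40 for Tap1 (0.0016). H2-T23 and H2-Q7 were also called, at 0.93 (0.0043) and 1.62 (0.039). Against border macrophages 7 of 10 were called, where 2.83% of 11969 genes were: H2-D1 at 1.45 ± 0.16 (edgeR adjusted p = 6.4e-05), H2-K1 at 1.32 ± 0.17, B2m at 1.11 ± 0.14, H2-Q7 at 2.10 ± 0.34, and Nlrc5, Tap1 and H2-T23 with adjusted p of 0.029, 0.033 and 0.011. Nlrc5 passed the low count filter of this joint fit only through its microglial counts. In border macrophages alone it failed that filter, with 9, 1, 3 and 2 UMIs. Its place among the 7 is therefore not support for a difference between the classes. Against endothelial cells only H2-D1 was called in every alternative fit. Against border macrophages H2-D1, H2-K1, B2m and H2-Q7 were. H2-Q7 against endothelial cells turned to -8.75 without the knockout-labelled sham mouse; the remaining sham mouse has 0 endothelial UMIs of it.

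**Figure D3:**
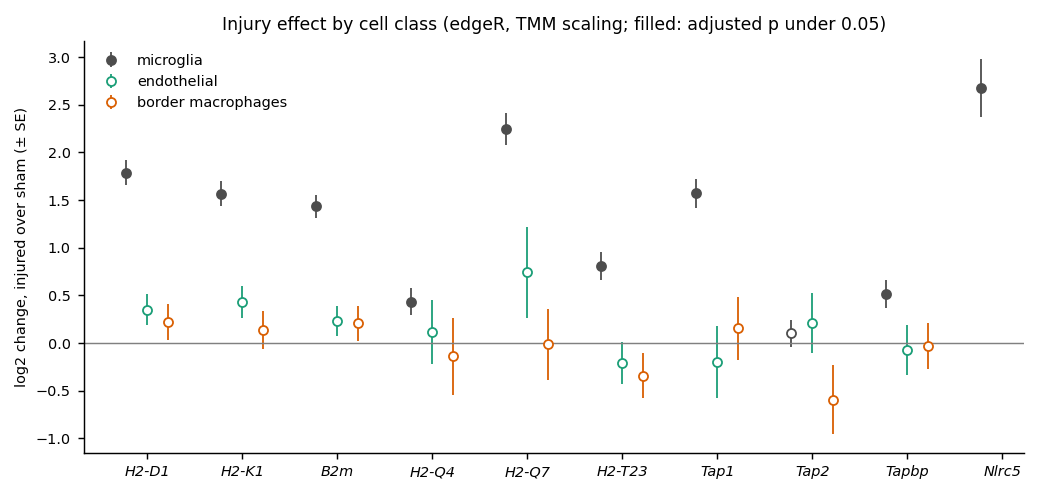
Log2 change of injured over sham for each member in microglia, endothelial cells and border macrophages, from edgeR with TMM scaling over 4 libraries; bars are SE and filled points have an adjusted p under 0.05. Microglia are filled for all members but Tap2, whose sign, like the calls of H2-Q4 and Tapbp, depends on the scaling. No endothelial or border macrophage point is filled, and Nlrc5 was not tested in those classes.

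The order of classes differed between sham and injured mice. In the sham mice H2-D1 in border macrophages was 2.32 (95% exact interval 2.16 to 2.50) and 2.27 (2.08 to 2.48) times the microglial level of the same mouse, and in endothelial cells 1.75 (1.5 to 2.02) and 1.58 (1.42 to 1.76) times. After injury these ratios were 1.05 and 0.93 for border macrophages and 0.77 and 0.86 for endothelial cells. For H2-K1 the border macrophage ratio was 1.72 and 1.69 in sham mice and 0.73 and 0.89 in injured mice. B2m started level, with border macrophages at 1.07 and 1.02 times microglia in sham mice, and stood at 0.59 and 0.54 after injury. Endothelial B2m was below microglial B2m in all 4 mice, at 0.63, 0.37, 0.58 and 0.33 times.

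Lyz2/Ms4a7 macrophages could be described in the injured mice only, since each sham mouse had 5. They held the highest H2-D1 of the 4 classes, at 2530 (2496 to 2565) and 3451 (3317 to 3589) CPM in wild-type and knockout-labelled mice, which was 1.53 and 1.96 times microglia. H2-K1 did not share that rank, at 1236 and 1449, or 0.84 and 1.00 times microglia. B2m was at 2543 and 3486, or 0.67 and 0.85 times. The ratio of H2-K1 to H2-D1 UMIs was 0.49 (0.48 to 0.50) and 0.42 (0.39 to 0.45) in these macrophages, against 0.89 and 0.83 in microglia of the same mice. H2-Q7 was low there, at 23.1 and 56.6, or 0.19 (0.16 to 0.22) and 0.42 (0.30 to 0.58) times microglia. H2-Q4 was likewise low, at 0.31 and 0.52 times.

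**Figure D4:**
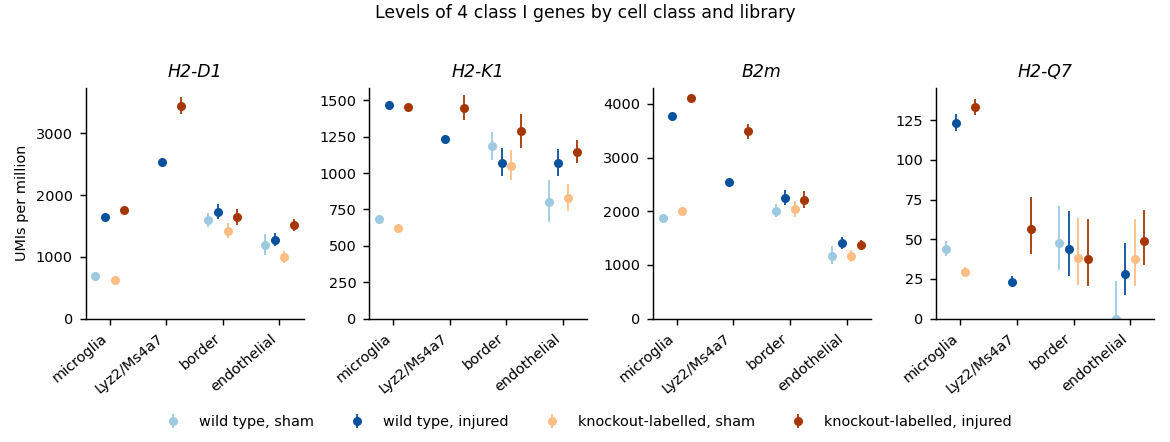
Levels of 4 class I genes by cell class and library in CPM from 0, with exact 95% Poisson intervals; sham Lyz2/Ms4a7 macrophages (5 cells per mouse) are not drawn. H2-D1 is highest in Lyz2/Ms4a7 macrophages, microglia reach the endothelial and border levels of H2-D1 only after injury, and H2-Q7 is highest in injured microglia.

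No member was called different between genotype labels in microglia. The edgeR genotype test called 0 of 10 members, where 0.604% of 12905 genes were called; 1 member had an unadjusted p under 0.05, and DESeq2 also called 0, with 1 at an unadjusted p under 0.05. In the edgeR fit that member was H2-T23, at 0.36 ± 0.14 log2 higher in knockout-labelled mice (adjusted p = 0.61), with knockout-to-wild-type ratios of 1.28 (1.19 to 1.38) in sham and 1.33 (1.27 to 1.40) in injured mice. For H2-D1 the fitted difference was -0.04 ± 0.13, for H2-K1 -0.11 ± 0.13 and for B2m 0.08 ± 0.12. H2-Q7 stood at -0.23 ± 0.16, and its ratio was 0.66 (0.57 to 0.77) in sham and 1.08 (1.02 to 1.15) in injured mice. None of the 9 members above 20 CPM differed by 2-fold in either state, with 10 CPM added as above, where 0.376% of 6385 genes did after injury and 0.172% in sham mice. Whether the injury effect differs between genotypes cannot be tested with 1 mouse per group. In Lyz2/Ms4a7 macrophages all 10 members were higher in the knockout-labelled injured mouse (52 cells) than in the wild-type one (447 cells). Of 5221 genes at 20 CPM or more in either sum, 61.4% were higher in the knockout-labelled mouse, and 9 of these 10 members are among those genes. The summed level of the 5 markers of this class was lower there, at 33488 CPM against 46559, and its part in the difference was not tested. The ratio ran from 1.17 (1.10 to 1.25) for H2-K1 to 2.45 (1.70 to 3.45) for H2-Q7, with 1.36 for H2-D1 and 1.37 for B2m. The interval for Nlrc5, 0.43 to 2.80, included 1. This sets 1 mouse against another and has no replicate check.

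Upstream of the transporter, the proteasome genes that feed class I were called with most members in microglia. The TMM-scaled test called 8 of 8 higher, with a median of 1.11 log2, where 23.4% of 12905 genes were called higher. With total UMIs only, it called 5 of 8, with a median of 0.70, where 1273 of 12905 genes were called higher. Psme2 and Psme1, the PA28 activator subunits, rose by 1.52 ± 0.15 and 1.29 ± 0.14 (SE, edgeR adjusted p = 5.9e-09 and 4.8e-08). The immunoproteasome subunits Psmb8 and Psmb9 rose by 1.17 ± 0.14 and 1.05 ± 0.15, from 174 to 305 and from 57.8 to 102 CPM in the wild-type pair. The constitutive subunits were called as well, with Psmb6 at 1.21, Psmb5 at 0.75 and Psmb7 at 0.51, and Psmb10 of the immunoproteasome stood at 0.60. The calls of Psmb5, Psmb7 and Psmb10 were lost with total UMIs only. On the CPM scale Psmb7 was at 72.2, 82.0, 81.3 and 83.0, and Psmb10 at 92.3, 107, 103 and 116. Among genes for loading, folding and trimming, 1 of 9 was called. This was Sec61b, a subunit of the translocon, at 0.70 ± 0.15 (edgeR adjusted p = 3.8e-04). The chaperones Calr and Pdia3, partners of tapasin, were at 0.29 ± 0.13 (adjusted p = 0.069) and 0.29 ± 0.14 (0.085), and the median of the 9 was 0.09. On the CPM scale Calr (842, 749, 839 and 806) and Pdia3 (466, 442, 532 and 477) were lower in both injured mice than in the sham mouse of the same genotype. With total UMIs only, 0 of the 9 were called higher and 3 lower (Canx, Hspa5 and Uggt1), where 5694 of 12905 genes were called lower.

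Of 16 further class I and class I-like genes, 9 were tested, 5 rose and 0 fell, with a median of 0.88 log2. Over all 12905 genes, 23.4% rose and 20.4% fell. H2-Q6, a close relative of H2-Q7, rose by 1.84 ± 0.16, H2-T22 by 1.73 ± 0.15 and H2-M3, which presents formylated peptides, by 1.62 ± 0.15 (SE, edgeR adjusted p = 3.5e-10, 3.7e-10 and 1.0e-09). H2-T24 and Mr1, which presents vitamin metabolites to T cells, rose by 0.92 and 0.88. Fcgrt, the neonatal Fc receptor, Hfe, Cd1d1 and H2-Q10 did not pass, at -0.17, -0.25, -0.43 and -0.32. With total UMIs only, 4 rose, without Mr1, and 3 fell, which were Fcgrt, Hfe and Cd1d1. In that fit 1273 of 12905 genes rose and 5694 fell, so a fall was common. On the CPM scale Fcgrt was at 83.0, 54.8, 85.4 and 57.9, Hfe at 103, 65.7, 111 and 69.8, and Cd1d1 at 8.94, 4.79, 10.8 and 6.34, so both injured mice were below both sham mice for each. Of the 7 class I receptors listed, 3 were tested. Pirb, an inhibitory receptor that binds class I, was at 17.4, 9.70, 12.3 and 11.1 CPM and did not pass, at -0.08 ± 0.18 (edgeR adjusted p = 0.76). Lilrb4a, an inhibitory receptor on the list that is not an established class I receptor in mouse, was at 12.7, 103, 6.45 and 67.0 CPM and rose by 3.60 ± 0.17 (edgeR adjusted p = 1.3e-15). Its genotype term, knockout-labelled over wild type, was -0.78 (edgeR adjusted p = 0.011). Klrd1, the CD94 chain, was at 5.47, 1.29, 8.87 and 3.00 and fell by 1.36 ± 0.27 (edgeR adjusted p = 2.1e-04).

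The regulators were mixed: of 22 tested, 8 rose and 2 fell, with a median of 0.16 log2, where 23.4% of 12905 genes rose and 20.4% fell. With total UMIs only, 4 rose and 9 fell, where 1273 of 12905 genes rose and 5694 fell. Stat2, which carries type I interferon signals, was at 12.3, 26.0, 11.1 and 27.0 CPM and rose by 1.59 ± 0.17 (SE, edgeR adjusted p = 1.1e-08). Irf9, its partner, rose by 0.86. The receptor chains Ifngr2, Ifnar2 and Ifnar1 rose by 0.76, 0.71 and 0.42, Irf8 by 0.47 and Nfyc by 0.43. These are TMM-scaled values: on the CPM scale Ifnar1 was at 45.7, 43.9, 38.9 and 41.2, Irf8 at 508, 527, 520 and 544 and Nfyc at 16.6, 16.9, 17.1 and 17.4, near level. With total UMIs only, Ifnar1, Ifnar2, Irf8 and Nfyc were not called. Ifngr1, the ligand-binding chain of the interferon-γ receptor, fell by 0.34 (adjusted p = 0.044), and Nfya, a CCAAT-binding subunit, fell by 0.58 (adjusted p = 0.0020). Rfx5, Rfxap and Rfxank, the RFX subunits that work with NLRC5, did not pass in the TMM-scaled fit, at -0.19, 0.29 and 0.21. Scaled by total UMIs only, they stood at -0.59, -0.11 and -0.20, and Rfx5 was called lower (edgeR adjusted p = 0.015). Rfx5 was at 15.5, 9.76, 14.9 and 10.4 CPM. All 13 genes of the interferon list were called higher.

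Across 14 sums of class and library, the mean profile of the members was most like that of Psme1 among 9076 other genes (Pearson r = 0.86, given as a description). Ogfr (0.82) and Tcp1 (0.79) came next. The first 10 also held the prefoldin subunit Pfdn5 (0.72) and the ribosomal protein genes Rps14 (0.75), Rpl7 (0.73), Rpl14 (0.72) and Rpl29 (0.71). The sums share libraries, depth and cell gates. Among the members Tap1 and H2-K1 followed that mean most closely (r = 0.88 and 0.81), and Tap2 and H2-Q4 least (-0.05 and 0.22).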

How the data were processed

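Raw UMI counts per gene and barcode were deposited by the authors, with Cell Ranger 6.0.1 and the mm10 build named in the submitters' processing notes; how multi-mapped reads were treated is not stated. Cells were kept with at least 500 genes, 1000 UMIs and at most 10% mitochondrial UMIs. Scrublet scores (scanpy 1.11.5) removed the top 0.8% per 1000 barcodes as doublets, 30 to 113 cells per library. Cells were gated on marker UMIs per 10000: at least 10 for microglia (with Lyz2/Ms4a7 markers under 80), 160 for Lyz2/Ms4a7 macrophages, 20 for border macrophages and 40 for endothelial cells. Cells at 20 or more for neutrophil, T and natural killer, B cell, neuronal, oligodendrocyte, astrocyte or mural markers were left out of the classes. So were those at 5 or more for dendritic markers. Counts were summed per class and library. CPM values, made here from those counts, carry exact Poisson intervals, ratios exact conditional binomial ones and thinned shares exact ones, at 95%, all for counting error only.

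Injury and genotype were fitted together in edgeR 4.0.16 (quasi-likelihood, TMM, filterByExpr; R 4.3.3) over all genes with Benjamini-Hochberg adjustment; SE is the change divided by the root of F. DESeq2 1.42.0 was an alternative. The edgeR step was tested on simulated counts. All 10 members are reported; from each pathway list, genes under an adjusted p of 0.05 are named, or, where fewer than 3 pass, those of largest change, at 20 CPM or more. Some genes that these rules pick, and 1 further promoter motif searched, are not reported here. Genes named as not passing were chosen after their values were seen. The test of microglial against endothelial or border macrophage injury effects, the microglial marker ranges, the pathway lists with total UMIs only and the setting without shared barcodes were added after the files were seen. A test of each class against microglia averaged over all 4 libraries was also run; it was dropped after its calls and its sign changes across settings had been seen, and is not reported. The members and lists were chosen with earlier results of these data known. Each library is 1 mouse, so p-values rest on 4 mice and on a spread pooled over genes.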

Additional observations from a re-analysis of the deposited data

Results flagged for a closer look

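The injury effect of some members differed between cell classes by the interaction term of the edgeR fit with library as a block, in log2 units with microglia as the larger effect. Against endothelial cells the differences were 1.33 for H2-D1, 1.03 for H2-K1, 1.09 for B2m, 1.62 for H2-Q7, 0.93 for H2-T23 and 1.70 for Tap1. Against border macrophages they were 1.45 for H2-D1, 1.32 for H2-K1, 1.11 for B2m, 2.10 for H2-Q7, 1.03 for H2-T23, 1.31 for Tap1 and 4.26 for Nlrc5. Nlrc5 in border macrophages rests on 9, 1, 3 and 2 UMIs and failed the low count filter in that class alone, so its value is not support for a difference. Both sets share the same microglia.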

How the results depend on the processing

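No paired analysis was possible because each group is 1 mouse and the groups share only replicate number 1. In microglia, genes called higher and lower after injury numbered 3019 and 2635; DESeq2 called 1904 and 1001, and scaling by total UMIs only called 1273 and 5694. Leaving out 1 library gave 2241 to 2826 higher and 1480 to 2135 lower. Genotype calls, summed over both directions like all counts that follow, went from 78 to 16 (DESeq2), 15 (total UMIs), 175 (no low count filter), 0 (no injury term), 147 and 191 (marker threshold doubled and halved), 159 (loose cell filter) and 161 (shared barcodes left out), and to 0 to 0 on leaving out 1 library. Endothelial calls went from 49 to 2 with DESeq2. Border macrophage calls went from 27 to 2 (DESeq2), 94 (no filter), 11 and 92 (threshold doubled and halved). Calls of microglia minus endothelial went from 602 to 143 (DESeq2) and 150 to 533 on leaving out 1 library, and of microglia minus border macrophages from 383 to 188 and 200 to 525.

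For single members, 132 alternative values of the microglial injury test kept direction and call, 6 lost the call (H2-Q4 and Tapbp) and 2 turned, both for Tap2: -0.30 with total UMIs and -0.021 without the knockout-labelled injured library (range on leaving out 1 library -0.021 to 0.21). The microglial fits that leave out 1 library, here and in the counts above, hold no term for the other factor. Genotype and injury are then mixed, so the genotype values of these fits are not a genotype difference alone. On leaving out 1 library they ranged from -1.22 to 1.09 for H2-D1, -1.11 to 0.86 for H2-K1 and -0.81 to 0.97 for B2m. The range was -0.038 to 0.43 for H2-Q4, -1.86 to 1.19 for H2-Q7 and -0.10 to 0.81 for H2-T23. For Tap1 it was -0.77 to 1.21, for Tapbp -0.25 to 0.34 and for Nlrc5 -1.97 to 1.79. In border macrophages H2-Q7 turned to 0.39 and 0.14 with the threshold doubled and halved. For microglia minus endothelial, H2-Q4 turned to -0.066 with total UMIs and ranged from -0.93 to 0.60 on leaving out 1 library, and H2-Q7 from -8.75 to 2.38. Injured-to-sham ratios turned for H2-K1 (0.88), H2-Q7 (0.69) and Tap2 (2.46, and 3.38 in knockout-labelled mice) in cells with 10 to 20 microglial marker UMIs. Tap2 also turned to 1.07 and 1.12 with median-of-ratios scaling and to 1.28 in knockout-labelled cells with 20 to 40. In wild-type mice H2-T23 stood at 0.99 and Tapbp at 0.98 without interferon-list cells, Tapbp at 0.99 in cells with 40 or more, and Nlrc5 at 0.91 in cells with 20 to 40. Beyond the mixing of genotype and injury named above, the cause of these changes was not tested.

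The limit throughout is 1 mouse per group. Depth limits Nlrc5 in all classes, H2-Q7 in endothelial cells and all values of sham Lyz2/Ms4a7 macrophages.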
